A study of Mus musculus with 18 samples.

Results

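The 10 genes described here mark T cells and natural killer (NK) cells, and they were followed in RNA from the left ventricle of mouse hearts. They were chosen by name as Cd3d, Cd3e, Cd3g, Cd247, Cd4, Cd8a, Lck, Nkg7, Gzma and Gzmb, and all 10 were found among the 24421 gene symbols of the count files. The study asked how the stress-induced protein Sesn2 bears on the response of the ageing heart to ischaemia followed by reperfusion (IR). It held 18 bulk RNA-seq libraries in 6 groups of 3. Young wild-type (WT) C57BL/6J mice were 3 to 4 months old and bought from The Jackson Laboratory, aged WT mice were 24 to 26 months old and came from Charles River, and Sesn2-/- mice (Sesn2-KO) were 3 to 4 months old and bred by the submitters. For IR, flow through the left anterior descending artery was stopped for 45 min and restored for 24 h before the ventricle was taken, while sham surgery opened the chest and left the artery open. Age changed together with the supplier and genotype together with the breeding colony, so neither pair can be told apart. The labels state neither the sex of the mice nor whether each library came from 1 mouse, and the Sesn2 deletion is not tied in them to any cell type.

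T cells recognise antigen through a receptor that signals through the CD3 gamma, delta and epsilon chains and the zeta chain, whose cytoplasmic tails are phosphorylated by the kinase LCK. The coreceptors CD4 and CD8 bring LCK to the receptor and divide T cells into helper and cytotoxic kinds. Cytotoxic T cells and NK cells kill targets by releasing granules that hold granzymes, and NK cells share the zeta chain but lack the surface T cell receptor. Few such cells reside in a healthy ventricle, where muscle cells supply most of the RNA. In whole tissue, fewer cells of a type and less RNA per cell cannot be told apart.

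Gene counts per library ranged from 9404531 to 14458047, and the 10 genes together received 36 to 223 of them, so single values below are mostly small counts. Levels are given as CPM, the usual scaling of a count by its library's total, here the total of counts assigned to genes. The cardiac identity of the tissue was plain: Myh6, the main myosin heavy chain of the adult mouse ventricle, stood at 6390 to 15400 CPM in all libraries. Sesn2 itself had 0 to 5 counts in the Sesn2-/- libraries and 30 to 86 in WT libraries. Several libraries stand apart. In each group, counts in 1 library increased with gene length relative to its group mean (Spearman rho over genes 0.29 to 0.452): sham 1 and IR 3 of the young WT mice, sham 1 and IR 3 of the aged WT mice, and number 3 of both Sesn2-/- groups. These were picked as the highest rho of each group, and deviations from a group mean tend to cancel. Other libraries tilted the opposite way, with rho of -0.404 in young sham 2 and -0.329 in aged sham 2. Fits without the 6 picked libraries leave 2 per group. Aged sham 2 held the highest summed level of the 10 genes, 16.5 CPM against 8.65 and 7.67 CPM in its group. Young sham 3 had 1600 CPM of the interferon-induced gene Igtp, against 29.4 and 45.9 CPM in its group, while its summed level of the 10 genes was 7.22 CPM against 6.03 and 5.73 CPM. Aged sham 2 also had the most Igtp in its group, 155 CPM against 30.7 and 38.6 CPM. Sesn2-/- sham hearts, which had no coronary closure, carried high levels of genes known to rise after injury: Timp1, an inhibitor of matrix proteases, stood at 76.5 to 90.0 CPM, against 2.1 to 3.65 CPM in young sham and 59.8 to 180 CPM in young IR hearts.

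The 3 CD3 chain genes lie side by side on chromosome 9 within 40056 bases (mm10). Cd3g occupies chr9:44969572-44980431 on the minus strand and Cd3d occupies chr9:44981786-44987339 on the plus strand, with their start sites 1355 bases apart and pointing away from each other. Cd3e lies at chr9:44998740-45009627 on the minus strand. The windows below run from 250 bases before to 50 bases after a start site, from RefSeq on GRCm38.p6, and are shown because Cd3d and Cd3g were the genes called higher in Sesn2-/- sham hearts and Cd3e lies beside them. The window of Gzma is shown beside them because its level was lower in Sesn2-/- IR than in young IR hearts. Capitals mark the core letters of ETS sites (AGGAAG, or CTTCCT on the other strand) and of T-box sites (AGGTGT, or ACACCT on the other strand), the motif classes bound by the lymphoid factors ETS1 and T-bet.
Cd3d, chr9:44981536-44981835, plus strand: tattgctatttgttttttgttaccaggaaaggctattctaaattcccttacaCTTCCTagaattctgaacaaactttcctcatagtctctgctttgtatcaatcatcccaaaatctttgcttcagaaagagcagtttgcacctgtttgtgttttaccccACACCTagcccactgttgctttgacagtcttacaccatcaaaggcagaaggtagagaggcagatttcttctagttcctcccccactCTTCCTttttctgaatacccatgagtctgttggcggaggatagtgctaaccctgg
Cd3e, chr9:45009562-45009861, minus strand: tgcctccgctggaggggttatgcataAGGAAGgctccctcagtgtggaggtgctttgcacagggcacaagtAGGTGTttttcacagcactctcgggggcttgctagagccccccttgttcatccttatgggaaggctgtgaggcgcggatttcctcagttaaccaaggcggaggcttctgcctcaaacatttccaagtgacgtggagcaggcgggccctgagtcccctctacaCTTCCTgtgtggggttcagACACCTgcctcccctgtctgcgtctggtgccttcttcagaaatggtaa
Cd3g, chr9:44980382-44980681, minus strand: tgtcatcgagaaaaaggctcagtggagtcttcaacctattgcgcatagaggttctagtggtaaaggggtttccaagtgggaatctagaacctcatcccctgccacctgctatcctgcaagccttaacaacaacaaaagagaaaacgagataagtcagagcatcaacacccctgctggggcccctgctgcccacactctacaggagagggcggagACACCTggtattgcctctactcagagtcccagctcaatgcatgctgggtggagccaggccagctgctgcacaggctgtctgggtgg
Gzma, chr13:113100932-113101231, minus strand: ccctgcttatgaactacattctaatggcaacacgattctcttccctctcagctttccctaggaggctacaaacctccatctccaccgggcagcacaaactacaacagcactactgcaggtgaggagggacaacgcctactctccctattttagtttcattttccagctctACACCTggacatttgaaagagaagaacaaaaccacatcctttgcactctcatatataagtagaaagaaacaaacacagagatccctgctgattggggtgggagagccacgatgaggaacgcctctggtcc
All 4 windows held a T-box core, and those of Cd3d and Cd3e each held 2 ETS cores as well. The reference table gave 10 windows for 9 of the genes, with none for Cd4. Of these 10 windows 5 held the T-box core and 6 the ETS core, against 13.7% and 35.4% of all 32851 windows of that length, and no marked matches overlap. On both strands, 4 of the 10 held the RUNX core TGTGGT (16.8% of all windows), 3 the STAT motif TTCNNNGAA (8.3%), 2 the E-box CAGCTG (16.3%), 1 the GATA letters AGATAA (11.2%) and 0 the TATA box letters TATAAA (13.6%). A match is a description of the letters and says nothing of binding.

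Levels were low throughout. Per kilobase of exon, the scale on which genes can be compared, Gzma (a granzyme, a protease of cytotoxic granules) led in young sham hearts with a group mean of 0.648 CPM per kb, followed by Cd247 with 0.537, and Cd3e was lowest with 0.0179. In Sesn2-/- IR hearts the order differed: Nkg7 led with 1.29 CPM per kb, Lck followed with 0.621, and Gzma was lowest but for Cd3e with 0.132 against 0.103. Over all libraries Cd247 received 443 counts, Cd4 283, Cd3g 214 and Lck 209, down to 61 for Gzmb. The largest count of any of these genes in a library was 48, for Cd247.

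**Figure D1:**
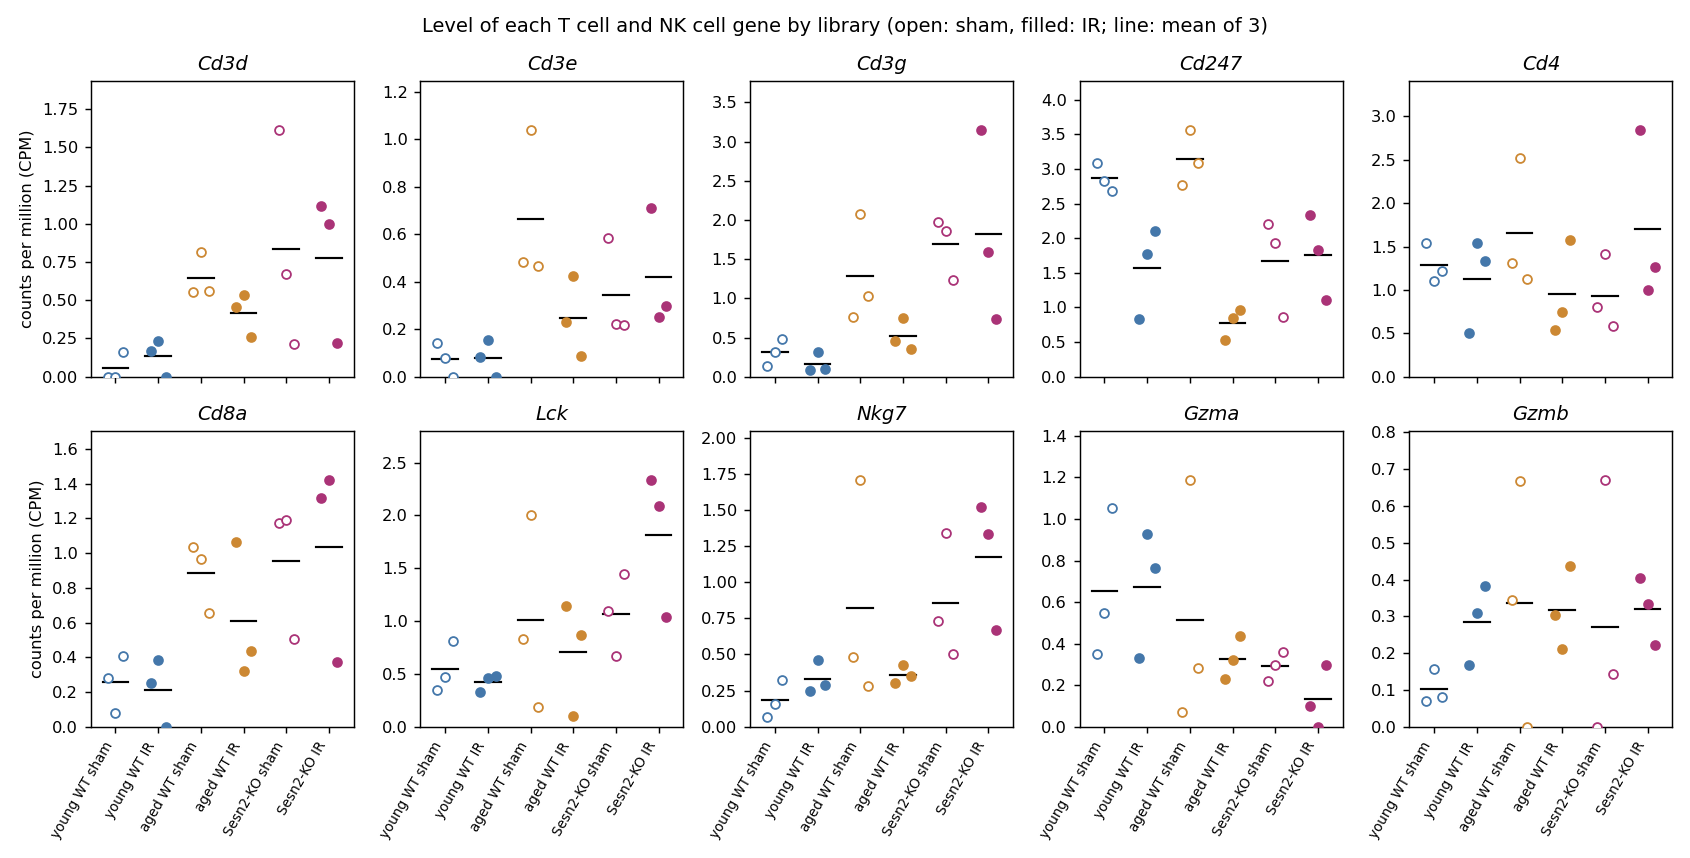
Level of each of the 10 genes in CPM (vertical axis, linear, from 0) in the 18 libraries, by group; open circles are sham libraries, filled circles IR libraries and lines group means of 3. By group mean the CD3 chains are lowest in the young WT groups, Cd247 is lowest in aged IR hearts, and Gzma is lowest in Sesn2-/- IR hearts.

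The CD3 chains were at 0 to 6 counts per library in young WT hearts and higher in most aged and Sesn2-/- hearts. Cd3d, the delta chain, stood at 0, 0 and 0.162 CPM in young sham and at 0.167, 0.232 and 0 CPM in young IR hearts. Aged hearts held 0.553, 0.815 and 0.561 CPM of Cd3d after sham and 0.457, 0.532 and 0.262 CPM after IR. Every aged library was therefore above every young one for this gene. In Sesn2-/- hearts the levels of Cd3d were 1.61, 0.670 and 0.217 CPM after sham and 1.12, 1.00 and 0.222 CPM after IR. Library 3 was the lowest of both Sesn2-/- groups, though in the sham group still above all young sham libraries, and in the IR group it was below the highest young IR library.

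Cd3g, the gamma chain, was the only CD3 chain with a read in every library. Young hearts held 0.140, 0.314 and 0.487 CPM of it after sham and 0.0833, 0.309 and 0.0954 CPM after IR, and aged hearts 0.761, 2.08 and 1.03 CPM after sham and 0.457, 0.744 and 0.349 CPM after IR. Sesn2-/- hearts held 1.98, 1.86 and 1.23 CPM after sham and 3.14, 1.59 and 0.740 CPM after IR. No Sesn2-/- library overlapped the young WT range for Cd3g, and aged and young libraries did not overlap within either treatment. Cd3e, the epsilon chain, was read least of the 3, and 135 bases of its exons overlap Gm48719 on the opposite strand, so its reads may not be fully separated from that gene's. It stood at 0.140, 0.0785 and 0 CPM in young sham, 0.0833, 0.155 and 0 CPM in young IR, 0.484, 1.04 and 0.467 CPM in aged sham, and 0.228, 0.425 and 0.0873 CPM in aged IR hearts. In Sesn2-/- hearts its levels were 0.586, 0.223 and 0.217 CPM after sham and 0.710, 0.250 and 0.296 CPM after IR, again above every young WT library. Summed over the 3 chains, young hearts spanned 0.0954 to 0.696 CPM, aged hearts 0.698 to 3.93 CPM and Sesn2-/- hearts 1.26 to 4.97 CPM.

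Cd247, which encodes the zeta chain, did not follow the CD3 chains. It stood at 3.09, 2.83 and 2.68 CPM in young sham and 2.77, 3.56 and 3.09 CPM in aged sham hearts, ranges that overlapped. After IR it stood at 0.833, 1.78 and 2.10 CPM in young hearts and 0.533, 0.851 and 0.960 CPM in aged hearts, each group below its own shams without overlap. Sesn2-/- hearts held 2.20, 1.94 and 0.868 CPM after sham and 2.33, 1.84 and 1.11 CPM after IR, ranges that overlapped. Part of Cd247 is shared with another gene: 2136 bases of its exons overlap Pou2f1, a widely expressed transcription factor gene on the opposite strand, and the strand setting of the counting is not given in the sources used here. Pou2f1 stood at 13.6 to 22.4 CPM, well above Cd247, so reads of the 2 genes may not be fully separated. A further gene, Gm16565, overlaps 206 bases of Cd247 exons on the same strand, where the strand of a read cannot separate them.

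**Figure D2:**
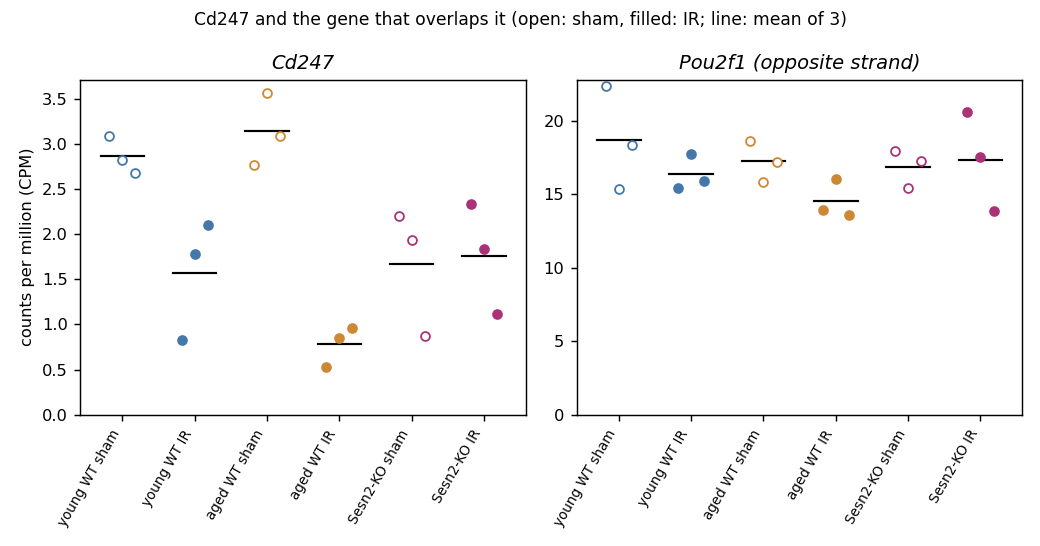
Cd247 (left) and the overlapping Pou2f1 (right) in CPM (linear axes from 0) in the 18 libraries; open circles are sham, filled circles IR and lines group means. By group mean Cd247 is lowest in aged IR hearts, at 0.533 to 0.960 CPM. The Pou2f1 ranges of aged sham (15.9 to 18.7 CPM) and aged IR hearts (13.6 to 16.1 CPM) overlap. The Pou2f1 median is also lower in aged IR hearts, at 13.9 against 17.2 CPM.

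Of the coreceptors, Cd8a ran with the CD3 chains and Cd4 did not. Cd8a, a chain of the CD8 coreceptor of cytotoxic T cells, stood at 0.281, 0.0785 and 0.406 CPM in young sham and 0.250, 0.386 and 0 CPM in young IR hearts. Aged hearts held 1.04, 0.964 and 0.654 CPM after sham and 1.07, 0.319 and 0.436 CPM after IR, and Sesn2-/- hearts 1.17, 1.19 and 0.506 CPM after sham and 1.32, 1.42 and 0.370 CPM after IR. The sham ranges did not overlap with the young one, and the IR ranges did. Cd4, which marks helper T cells and is also made by some myeloid cells, overlapped among all 6 groups. Its levels were 1.54, 1.10 and 1.22 CPM in young sham, 0.4996, 1.55 and 1.34 CPM in young IR, 1.31, 2.52 and 1.12 CPM in aged sham, and 0.533, 0.744 and 1.57 CPM in aged IR hearts. Sesn2-/- hearts held 0.806, 1.41 and 0.579 CPM of Cd4 after sham and 2.84, 1.00 and 1.26 CPM after IR. Lck, the kinase that starts receptor signalling, stood at 0.351, 0.471 and 0.811 CPM in young sham and 0.333, 0.464 and 0.477 CPM in young IR hearts. In aged hearts it scattered widely, at 0.830, 2.00 and 0.187 CPM after sham and 1.14, 0.106 and 0.873 CPM after IR. The Sesn2-/- levels of Lck were 1.10, 0.670 and 1.45 CPM after sham and 2.33, 2.09 and 1.04 CPM after IR, and only the IR group cleared the matching young range.

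The granule genes split. Nkg7, a granule membrane protein of cytotoxic T and NK cells, stood at 0.0701, 0.157 and 0.325 CPM in young sham, 0.250, 0.464 and 0.286 CPM in young IR, 0.484, 1.70 and 0.280 CPM in aged sham, and 0.305, 0.425 and 0.349 CPM in aged IR hearts. Sesn2-/- hearts held 0.733, 1.34 and 0.506 CPM after sham and 1.52, 1.34 and 0.666 CPM after IR, all above every young WT library. Gzma was lower in Sesn2-/- hearts: young hearts held 0.351, 0.549 and 1.05 CPM after sham and 0.333, 0.927 and 0.763 CPM after IR, against 0.220, 0.298 and 0.362 CPM and 0.101, 0 and 0.296 CPM in Sesn2-/- hearts. The ranges overlapped after sham surgery and not after IR. Aged hearts held 0.0692, 1.19 and 0.280 CPM of Gzma after sham and 0.228, 0.319 and 0.436 CPM after IR, so aged sham 2 alone was high. Gzmb, the granzyme that cleaves caspases, never exceeded 9 counts. It stood at 0.0701, 0.157 and 0.0811 CPM in young sham, 0.167, 0.309 and 0.382 CPM in young IR, 0.346, 0.667 and 0 CPM in aged sham, and 0.305, 0.213 and 0.436 CPM in aged IR hearts. Its Sesn2-/- levels were 0, 0.670 and 0.145 CPM after sham and 0.406, 0.334 and 0.222 CPM after IR. Its ranges overlapped between young and Sesn2-/- hearts under both treatments.

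Sesn2-/- hearts held more CD3 chain RNA than young WT hearts. In sham hearts, pooled counts of Cd3d were 34 in Sesn2-/- and 2 in young WT libraries, a ratio of CPM of 16.3 (95% exact counting interval 4.19 to 140), and those of Cd3g 69 and 12, a ratio of 5.53 (2.97 to 11.2). Both genes rose by the test across all genes (edgeR quasi-likelihood, Benjamini-Hochberg adjusted over 13859 genes): Cd3d with a log2 fold change of 3.78 ± 1.02 (SE, n = 3 per group, adjusted p = 0.0434) and Cd3g with 2.41 ± 0.60 (adjusted p = 0.0307). Of the 10 genes 8 passed the filter on low counts, and 2 of these 8 were called higher, where 3.32% of all tested genes were. Genes that reach such a filter only in the groups where they are high enter the test for that reason. These shares, and the shares and medians of the 8 given below, are therefore descriptions. The 8 had a median log2 fold change of 1.42, against 0.021 over all tested genes, and 4 of them (Cd3d, Cd3g, Cd8a and Nkg7) were higher without overlap, where 14.9% of all tested genes were. Cd247 was lower without overlap, with a log2 fold change of -0.78 ± 0.36 (adjusted p = 0.24), where 10.5% were. Without any one of young sham 1, 2 or 3 or Sesn2-/- sham 1 or 2, neither gene passed, with adjusted p of 0.0563 to 0.195 for Cd3d and 0.0558 to 0.134 for Cd3g. With each of the 6 libraries left out in turn, the log2 fold changes stayed at 2.89 to 6.39 for Cd3d and 2.04 to 2.87 for Cd3g. Without the 6 length-tilted libraries, which leaves 2 per group, the adjusted p was 0.0746 and 0.12 in the same order. Sesn2-/- sham 3, one of those left out, had the lowest level of both genes in its group. Whether the tilt or the smaller groups cost these calls was not tested.

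After IR the pooled counts of Cd3g were 60 in Sesn2-/- and 6 in young WT libraries, a ratio of 10.02 (4.35 to 28.4), and Cd3g rose with a log2 fold change of 3.30 ± 0.68 (adjusted p = 0.0448). It was the 1 gene called higher of the 8, where 0.31% of all tested genes were. Lck was at 62 against 15 pooled counts, a ratio of 4.14 (2.33 to 7.84), and Gzma at 5 against 24, a ratio of 0.209 (0.0622 to 0.558). Their log2 fold changes, 2.03 ± 0.68 (adjusted p = 0.231) and -2.22 ± 0.90 (adjusted p = 0.314), did not pass. Higher without overlap were Cd3g, Lck and Nkg7, where 8.14% of all tested genes were, and lower without overlap was Gzma, where 4.6% were. The call of Cd3g was lost without any one of young IR 1, 2 or 3 or Sesn2-/- IR 1 or 2, with adjusted p of 0.0825 to 0.171, and without the 6 length-tilted libraries (adjusted p = 0.064).

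Averaged over sham and IR, a contrast added after the group values had been seen, 4 genes were higher in Sesn2-/- than in young WT hearts, where 5.69% of all tested genes were. Cd3g rose by a log2 fold change of 2.86 ± 0.46 (adjusted p = 0.00125), Cd3d by 3.05 ± 0.69 (adjusted p = 0.0114), Nkg7 by 1.96 ± 0.47 (adjusted p = 0.0169) and Cd8a by 1.99 ± 0.50 (adjusted p = 0.0206). Lck had 1.51 ± 0.48 (adjusted p = 0.0587) and Gzma -1.66 ± 0.59 (adjusted p = 0.09), neither past the threshold, while Cd4 had 0.04 ± 0.37. The median over the 8 was 1.73, against 0.012 over all tested genes. In any young WT library the 4 genes called had at most 3 (Cd3d), 6 (Cd3g), 5 (Cd8a) and 6 (Nkg7) counts. They passed the filter on low counts through the other groups, so the share called and this median are descriptions. Cd3e, left out by the filter, had 2.06 ± 0.61 in a fit without it (adjusted p = 0.0515). Cd8a lost its call without Sesn2-/- sham 1 (adjusted p = 0.0508) or Sesn2-/- IR 2 (adjusted p = 0.0639), and Nkg7 without the 6 length-tilted libraries (adjusted p = 0.0612). Other leukocyte genes moved in the same hearts. Summed neutrophil markers stood at 42.4 to 95.8 CPM in Sesn2-/- sham and 6.52 to 8.63 CPM in young sham hearts. Of these markers 9 of 10 were called higher in that sham comparison, where 3.32% of all tested genes were. Macrophage and monocyte markers summed to 954 to 1040 CPM against 489 to 727 CPM, with 4 of 15 called higher and 15 of 15 log2 fold changes above 0. Pan-leukocyte genes summed to 336 to 375 CPM against 186 to 280.4 CPM, with 0 of 12 called and 12 of 12 above 0, as were 53.3% of all tested genes. Summed B cell markers stood at 11.9 to 21.5 and 16.6 to 19.1 CPM there. None of the 9 tested was called, where 5.11% of all tested genes were in either direction. Their part in the result, and that of the high Timp1 level in the same shams, was not tested.

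**Figure D3:**
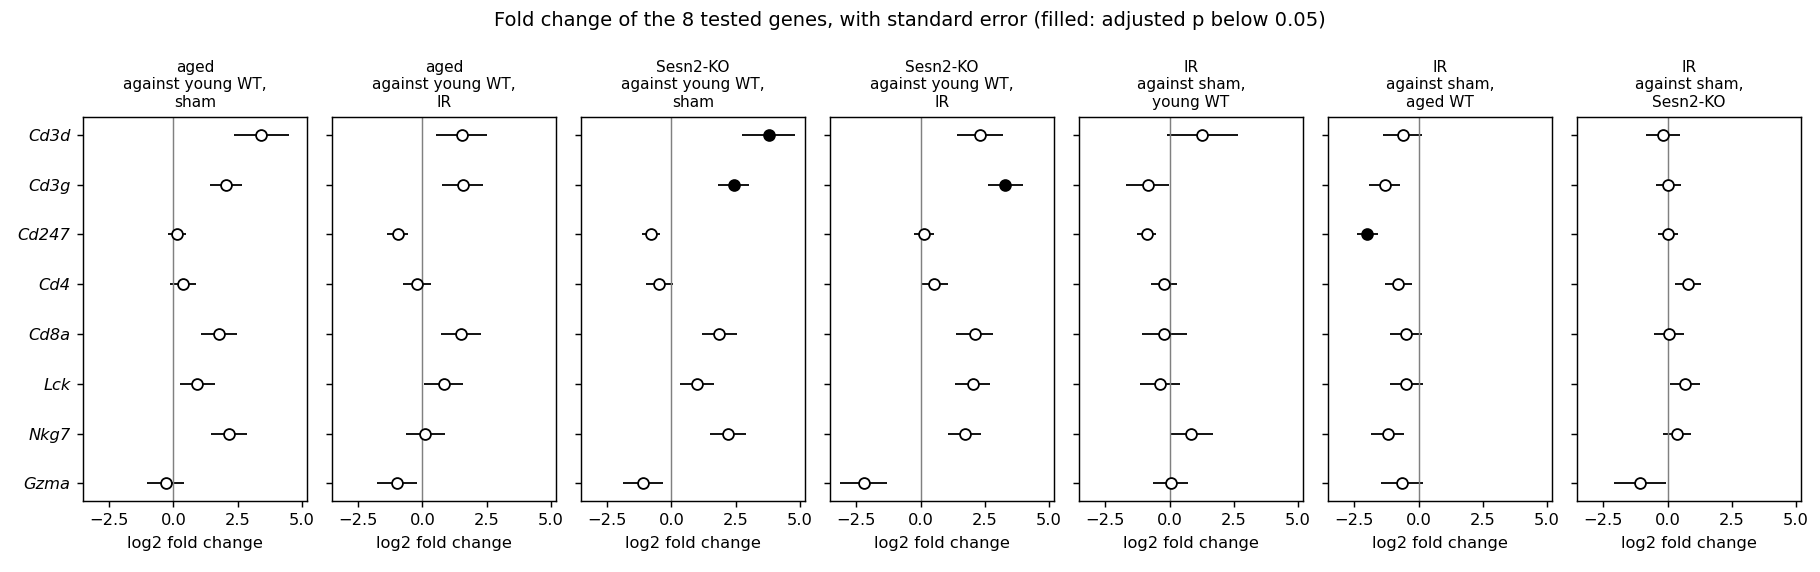
Log2 fold change (horizontal axis) of the 8 tested genes in 7 comparisons, with bars of 1 standard error; filled points have an adjusted p below 0.05. Filled are Cd3d and Cd3g in Sesn2-/- against young sham hearts, Cd3g in the IR hearts of the same pair, and Cd247 after IR in aged hearts.

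Aged hearts were set against the same young libraries, so this comparison and the previous one share their controls. In sham hearts Cd3d had 25 pooled counts against 2, a ratio of 12.7 (3.17 to 111), Cd3e 26 against 3, a ratio of 8.82 (2.7 to 45.5), and Cd3g 50 against 12, a ratio of 4.24 (2.23 to 8.75). No gene of the 8 was called by edgeR, where 0.152% of all tested genes were, or by DESeq2. At an unadjusted p below 0.05 there were 4, where 4.44% of all tested genes were: Cd3d at 3.43 ± 1.06 (adjusted p = 0.564), Cd3g at 2.04 ± 0.62 (adjusted p = 0.513), Nkg7 at 2.17 ± 0.71 (adjusted p = 0.625) and Cd8a at 1.78 ± 0.70 (adjusted p = 0.902). The ranges of Cd3d, Cd3g and Cd8a did not overlap, as was so in the higher direction for 5.71% of all tested genes. Cd247 and Cd4 lay near 0 on the log2 scale, at 0.14 ± 0.34 and 0.37 ± 0.50. After IR the aged hearts again had no call among the 8 by edgeR (0.0649% of all tested genes were called) or DESeq2, with 1 gene, Cd247, at an unadjusted p below 0.05 (3.99% of all), at -0.96 ± 0.42. Cd3d and Cd3g were higher without overlap, as were 2.44% of all tested genes. Averaged over both treatments, also a contrast added later, none of the 8 was called by either tool (0.469% of all tested genes were by edgeR), 4 had an unadjusted p below 0.05 (6.96% of all), and Cd3d, at 2.48 ± 0.74 (adjusted p = 0.258), was the 1 gene higher without overlap, where 0.397% of all tested genes were.

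None of the 8 tested genes was called higher after IR in any background. In young hearts 0 of 8 were called by edgeR, where 6.07% of all tested genes were, and 0 by DESeq2; 1 had an unadjusted p below 0.05 (21.0% of all), Cd247 at -0.90 ± 0.36 (adjusted p = 0.164). Cd247 was also the 1 gene lower without overlap, as were 9.63% of all tested genes. In aged hearts Cd247 fell from 121 pooled counts to 26, a ratio of 0.244 (0.153 to 0.376), with a log2 fold change of -2.00 ± 0.40 (adjusted p = 0.0074). It was the 1 gene called lower of the 8, where 2.24% of all tested genes were, and the call was lost without aged IR 1 (adjusted p = 0.0595). Cd3d, Cd3g and Cd247 were lower without overlap in aged IR hearts, where 13.8% of all tested genes were, though Cd3g at -1.33 ± 0.59 (adjusted p = 0.183) and Cd3d at -0.62 ± 0.76 did not pass. Pou2f1 had -0.23 ± 0.16 (adjusted p = 0.404) there. Its median was 17.2 CPM in aged sham and 13.9 CPM in aged IR hearts, and that of Cd247 was 3.085 and 0.8507 CPM. Whether reads of Pou2f1 or Gm16565 take part in the fall of Cd247 was not tested. In Sesn2-/- hearts 0 of 8 were called by edgeR or DESeq2, edgeR called 0.0% of all tested genes, and 0 of 8 had an unadjusted p below 0.05 (14.7% of all).

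Over the mean of the 3 backgrounds Cd247 fell by 0.96 on the log2 scale (SE 0.22, adjusted p = 0.00442) and was the 1 gene called lower of the 8, where 10.9% of all tested genes were. None was called higher, where 15.8% were. The median over the 8 was -0.15 and over all tested genes -0.0038. In the same contrast 11 of 12 pan-leukocyte genes and 10 of 10 neutrophil markers rose, with median log2 fold changes of 0.90 and 3.08. Whether the IR response differed between backgrounds was tested directly. Aged minus young had 0 of 8 called by edgeR or DESeq2 and 0 at an unadjusted p below 0.05, where 0.0% and 1.1% of all tested genes were by edgeR. Sesn2-/- minus young likewise had 0, 0 and 0, where 0.0577% and 5.55% were. For Cd247 the differences were -1.10 ± 0.54 (aged minus young, adjusted p = 1) and 0.91 ± 0.52 (Sesn2-/- minus young, adjusted p = 0.955), so the fall in aged hearts was not shown to differ from the change in young hearts. Aged minus Sesn2-/-, a contrast added after the group values had been seen, had 0 of 8 called by edgeR or DESeq2, where 0.0505% of all tested genes were by edgeR. At an unadjusted p below 0.05 there were 2 (3.93% of all): Cd247 at -2.01 ± 0.55 (adjusted p = 0.552) and Cd4 at -1.58 ± 0.74 (adjusted p = 1).

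Other genes of T cells were followed through a list of 30, of which 27 were found (the receptor constant regions Trac, Trbc1 and Trbc2 were not among the symbols) and 14 tested. In Sesn2-/- against young hearts, averaged over treatments, 2 of the 14 rose and none fell, where 9.72% of all tested genes were called in either direction, and the median log2 fold change was 0.84. Prkcq, the kinase PKC theta, which relays T cell receptor signals and is also made in muscle, rose by 1.42 ± 0.21 (adjusted p = 0.00062), from 5.25 to 8.83 CPM in young to 13.3 to 29.2 CPM in Sesn2-/- libraries. Lcp2, an adaptor of the receptor pathway also present in myeloid cells, rose by 0.68 ± 0.20 (adjusted p = 0.0403), a call lost in 9 of the 12 fits that leave out 1 library. Skap1 at 2.20 ± 0.73 (adjusted p = 0.0674) and Lat at 1.30 ± 0.43 (adjusted p = 0.0677), adaptors downstream of the receptor, did not pass. In aged against young sham hearts Prkcq was the 1 gene called of the 14, at 1.88 ± 0.29 (adjusted p = 0.01). It stood there at 27.8 to 29.0 CPM against 6.49 to 8.79 CPM, and lost its call without young sham 1, 2 or 3 or aged sham 2 (adjusted p = 0.0506 to 0.0837) and without the length-tilted libraries (0.162). After IR, over the mean of the backgrounds, 3 of the 14 rose and 2 fell, where 15.8% of all tested genes were called higher and 10.9% lower. Among them Lcp2 rose by 0.80 ± 0.16 (adjusted p = 0.00208), while Bcl11b, a T lineage factor, fell by 0.76 (SE 0.19, adjusted p = 0.00796) and Cd28, a costimulatory receptor, by 0.50 (SE 0.13, adjusted p = 0.00871). The calls of Bcl11b and Cd28 were lost without the 6 length-tilted libraries (adjusted p = 0.165 and 0.16). In young sham hearts Bcl11b had 162 and Cd28 341 pooled counts, against 12 for Cd3g. Which cells supplied these reads was not tested.

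Of 27 further NK and cytotoxic cell genes 9 were tested, and in Sesn2-/- against young hearts, averaged over treatments, 2 rose and 1 fell, where 5.69% of all tested genes were called higher and 4.03% lower. Klrd1, the CD94 receptor chain, rose by 1.77 ± 0.44 (adjusted p = 0.0206), with 86 pooled counts against 23, and lost its call without Sesn2-/- IR 2 (adjusted p = 0.0581) and with the compared groups alone (adjusted p = 0.0505). Fcer1g, an adaptor shared with myeloid cells, rose by 0.67 ± 0.19 (adjusted p = 0.0354), a call lost in 5 of 12 such fits. Gzmm, a granzyme of NK cells, fell by 0.66 (SE 0.19, adjusted p = 0.0418), a call lost in 9 of 12. In young sham hearts Gzmm had 460 pooled counts, against 25 for Gzma, and which cells supplied its reads was not tested. Of 14 chemokines and receptors that draw T and NK cells 12 were tested, and 4 rose in the same contrast (5.69% of all tested genes were called higher). Ccl5, a chemokine made by activated T cells among others, rose by 2.07 ± 0.41 (adjusted p = 0.00512), from 0.281 to 0.749 CPM in young to 1.23 to 3.76 CPM in Sesn2-/- libraries. The receptors Cxcr6 at 2.39 ± 0.62 (adjusted p = 0.0239) and Cxcr3 at 1.63 ± 0.45 (adjusted p = 0.0318) rose too, and lost their calls in 3 and 6 of the 12 fits. The fourth, Cxcl16, had 0.49 ± 0.15 (adjusted p = 0.0492) and lost its call in 11. Cxcl9, a chemokine induced by interferon gamma, ran the other way, at -1.24 ± 0.38 (adjusted p = 0.0505) in that contrast. In Sesn2-/- sham hearts it stood at 6.67, 6.33 and 5.14 CPM, against 14.1, 21.4 and 80.7 CPM in young sham 1, 2 and 3, and it fell by 2.69 on the log2 scale (SE 0.53, adjusted p = 0.0088). Without young sham 3, the library high in Igtp, it fell by 1.54 (SE 0.37, adjusted p = 0.0398). That call was lost with the compared groups alone (adjusted p = 0.0842) and without the length-tilted libraries (adjusted p = 0.0656). In aged against young sham hearts none of the 9 or the 12 was called, where 0.152% of all tested genes were.

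**Figure D4:**
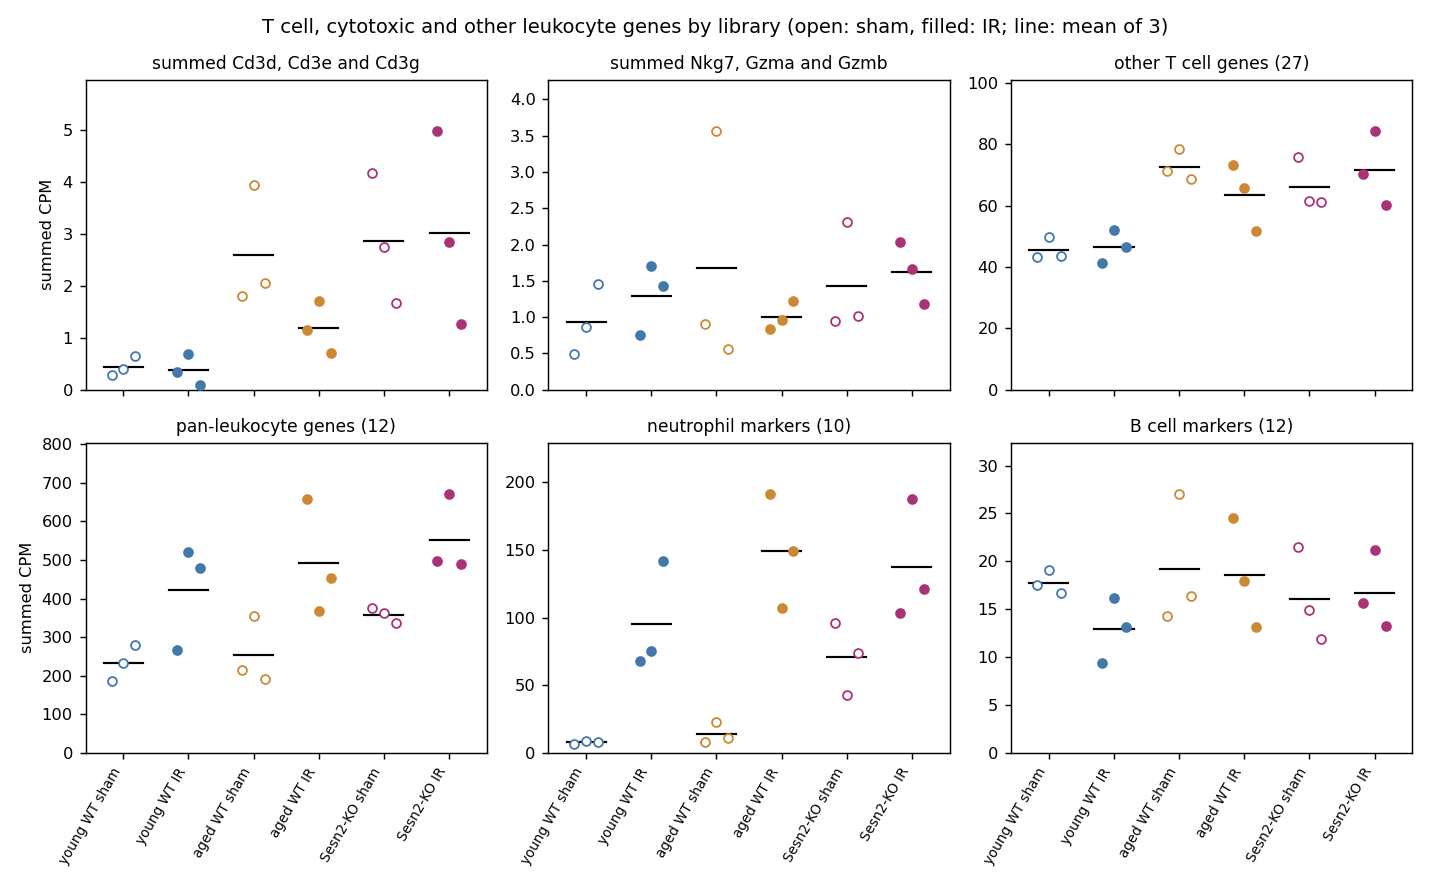
Summed CPM (vertical axes, linear, from 0) of the CD3 chains, of Nkg7, Gzma and Gzmb, and of 4 longer lists of leukocyte genes in the 18 libraries; open circles are sham, filled circles IR and lines group means. CD3 chain sums are lowest in young WT hearts under both treatments, while neutrophil sums are lowest in the young and aged sham hearts.

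Genes whose levels were most like the summed level of the 10 genes were sought among 13851 others, by Pearson r of log2(CPM + 0.5) over the 18 libraries, which share depth and batch with both values. The closest were Kank4 (r = 0.887), Gm684 (0.872), Itih2 (0.835), Fbln7 (0.834), Cadm1 (0.825), Dkk3 (0.813), Fras1 (0.804) and Sgip1 (0.797). None of the 8 is a T cell gene on the lists used here. Kank4, which encodes an ankyrin repeat protein, stood at 1.81 to 1.95 CPM in young sham, 0.5 to 1.24 CPM in young IR, 2.06 to 3.48 CPM in aged sham and 0.611 to 1.14 CPM in aged IR hearts, and at 1.74 to 2.93 and 1.11 to 3.14 CPM in the Sesn2-/- groups. Cd247 and Cd4 have the largest counts in the sum to which these genes were compared.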

How the data were processed

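The samples were 18 bulk RNA-seq libraries of mouse left ventricle. Each deposited file holds raw counts of reads per gene symbol, which the authors made from poly(A)-enriched stranded libraries; the submitters' processing notes name mm10 and the tools HTSeq, TopHat2, Bowtie2, SAMtools and FastQC, and the strand setting is not given in the sources used here. Rows for reads of no feature (6.12 to 9.06% of all counts, these rows included) and ambiguous reads (0.63 to 0.76%) were left out of totals and tests. Libraries of a group differed by more than counting noise (chi-square per degree of freedom 7.27 or more). The labels do not say that they came from separate animals, so p-values measure only the spread between these samples, which may be technical.

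Counts were fitted with edgeR 4.0.16 in R 4.3.3 (quasi-likelihood test, TMM scaling, filterByExpr, 6 group means), which tested 13859 genes, with Benjamini-Hochberg adjustment over all of them and a threshold of 0.05. Ratios of pooled counts carry exact binomial 95% intervals that cover counting error only. The Sesn2-/- against young sham test was checked on simulated data. The genes changed there had a mean above 1 CPM, a level most of the 10 genes did not reach, so the check does not cover those. Alternatives were DESeq2 1.42.0, other scalings, no filter, a fit on only the groups compared, a block for the replicate number, and each library left out; leaving out the 6 length-tilted libraries, 2 contrasts averaged over treatments and the aged minus Sesn2-/- difference in IR response were added after seeing the data. Named are all 10 genes and up to 4 genes of each other list by smallest p, plus the 8 most alike in pattern; 1 gene this rule names is not reported here. The genes and lists were chosen with earlier results of these data known.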

Additional observations from a re-analysis of the deposited data

How the results depend on the processing

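Depth limits these results: only 8 of the 10 genes passed the filter on low counts, and no single count exceeded 48. In Sesn2-/- against young sham hearts the number of the genes called, 2, became 1 with the compared groups alone, where fewer genes were tested (Cd3g), and 0 without the 6 length-tilted libraries; after IR it went from 1 to 0 in both. Leaving out each library in turn gave 0 to 2 calls for the sham and 0 to 1 for the IR comparison, 0 to 1 for IR in aged hearts, 1 to 1 for IR over the mean of the backgrounds, 3 to 4 for Sesn2-/- against young averaged over treatments, and 0 to 0 for each of the others. The averaged Sesn2-/- contrast gave 5 with DESeq2, 5 with the compared groups alone and 3 without the length-tilted libraries, against 4. Replicate numbers did not pair the libraries: deviations from group means of same-numbered libraries had r of -0.387 to 0.72 (median 0.026, 45 pairs), and 7 of 18 libraries correlated best with their own number. With the replicate number as a block the calls stayed at 0, 1, 0 and 1 for IR (young, aged, Sesn2-/- and their mean), 0 and 0 for age, 2 and 1 for genotype (sham and IR), 0, 0 and 0 for the differences in IR response, and 0 and 4 for the averaged age and genotype contrasts. For the 8 tested genes of the 10, with other lists left aside, 1616 alternative values kept their side of the threshold. Most of these were of genes not called in the main fit either, so they say little of how stable the calls are. A call was lost in 22 and gained in 2, and 0 reversed direction where either fit called the gene. Against young WT, Cd3d and Cd3g in Sesn2-/- sham and Cd3g in Sesn2-/- IR hearts each lost their call in 5 of 6 fits leaving out 1 library. Direction was not compared where neither fit called it. The median change of all genes moved by under 0.1 (log2) with any scaling.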

Other observations

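Cxcl13, the chemokine that draws B cells and follicular helper T cells into lymphoid follicles, was low in young WT hearts, at 0 to 5 counts per library in the IR group. It had 2 pooled counts in young sham and 225 in Sesn2-/- sham libraries, a ratio of CPM of 108 (95% exact counting interval 29.6 to 898), and stood at 3.5 to 8.5 CPM in the latter. In aged sham hearts it had 79 pooled counts, a ratio to the same young libraries of 40.2 (10.8 to 338). By edgeR it rose in Sesn2-/- sham hearts (log2 fold change 6.49 ± 1.34, adjusted p = 0.0112) and not in aged sham hearts (5.05 ± 1.48, adjusted p = 0.464). The first call was lost without young sham 1 (adjusted p = 0.0574) and without the 6 length-tilted libraries (adjusted p = 0.0643). In aged hearts Cxcl13 spanned 0.841 to 3.48 CPM after sham and, more widely, 0.785 to 21.7 CPM after IR. Averaged over sham and IR, Cxcl13 rose in Sesn2-/- (5.60 ± 0.88, adjusted p = 0.00114) and in aged hearts (5.28 ± 0.90, adjusted p = 0.00949), the latter with an adjusted p of 0.0543 without the length-tilted libraries. B cell markers gave 0 calls of 9 in both of these contrasts, where 9.72% and 0.469% of all tested genes were called. Their log2 fold changes were above 0 for 6 of 9 in the Sesn2-/- contrast (median 0.05) and for 9 of 9 in the aged one (median 0.40), against 52.2% and 47.5% of all tested genes.

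Among genes of regulatory, helper and developing T cells 4, chosen because their counts were low, are given here. Foxp3, the regulatory T cell factor, had 0 to 1 pooled counts per group, Ifng 0 to 2 and Il17a 0 in every group. Rag1, which recombines receptor genes in the thymus, had 0 pooled counts in 5 groups and 4 in Sesn2-/- IR hearts. Other genes of the same lists were higher: Il2ra, the interleukin-2 receptor alpha chain, had 67 to 144 pooled counts per group, and the 8 thymocyte markers summed to 4.15 to 8.29 CPM per library, with 3 of them tested.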
